A study of Mus musculus with 6 samples.

Results

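The Pax transcription factor family was followed in craniofacial tissue of *Rbfox2* mutant and control mouse embryos. All rows of the deposited gene table named *Pax1*, *Pax2*, *Pax3*, *Pax5*, *Pax6*, *Pax7*, *Pax8* or *Pax9* were taken, which gave 8 of 38553 genes. RNA-Seq was done on poly(A)+ RNA of craniofacial tissue dissected at E12.5, with 3 samples per genotype. The 3 controls were Rbfox2 flox/flox without Cre, so both of their *Pax3* alleles were intact. The 3 mutants were Pax3Cre/+:Rbfox2 flox/flox, with Cre knocked into 1 of the 2 alleles of *Pax3*. Both genotypes carried floxed *Rbfox2*, on a mixed genetic background, and every mutant and no control carried the knock-in. An effect of the *Pax3* allele and an effect of *Rbfox2* deletion on a Pax gene therefore cannot be told apart here. The driver acts in neural crest cells and in paraxial mesoderm and its derivatives, while the tissue was sequenced whole, with cells that never expressed Cre.

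Pax proteins bind DNA through the paired domain and set up cell fate in the early embryo, and they fall into subgroups of close paralogs. *Pax3* and *Pax7*, which also encode a homeodomain, act in the dorsal neural tube, the neural crest and muscle progenitors. *Pax1* and *Pax9* act in pharyngeal pouches, sclerotome and facial mesenchyme, and *Pax9* is needed for palate and teeth. *Pax6* is the eye and forebrain factor of the family, and *Pax2*, *Pax5* and *Pax8* act at the midbrain-hindbrain boundary, in hindbrain and spinal interneurons, and in ear and kidney. Because Cre sits in the *Pax3* locus, the comparison asks whether *Pax3* was lower in the mutants and whether its paralogs, *Pax7* above all, moved with it.

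To show how alike the paralogs are, the in-frame stretch of 60 bases of *Pax3* coding sequence that is best kept over the family is printed for each member, 5′ to 3′. It lies in the paired box. The sequences are from GENCODE M21 transcripts on GRCm38, and capitals mark bases that differ from *Pax3*.
Pax3: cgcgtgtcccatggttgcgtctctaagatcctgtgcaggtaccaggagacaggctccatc
Pax7: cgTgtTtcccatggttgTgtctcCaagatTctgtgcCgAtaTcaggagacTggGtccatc
Pax1: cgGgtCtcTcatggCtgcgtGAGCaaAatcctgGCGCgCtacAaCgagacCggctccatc
Pax9: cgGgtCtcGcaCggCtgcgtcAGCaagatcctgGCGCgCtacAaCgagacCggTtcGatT
Pax2: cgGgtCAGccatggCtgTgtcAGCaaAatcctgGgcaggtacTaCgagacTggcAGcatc
Pax5: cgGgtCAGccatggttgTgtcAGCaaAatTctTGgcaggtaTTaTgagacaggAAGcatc
Pax8: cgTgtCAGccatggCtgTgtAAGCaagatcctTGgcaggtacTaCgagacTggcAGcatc
Pax6: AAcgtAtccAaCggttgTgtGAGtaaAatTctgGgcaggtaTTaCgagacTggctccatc
*Pax7* matched *Pax3* at 50 of the 60 bases, while the other members matched it at 41 to 44. The stretch is exonic coding sequence in all members. It lies in exon 2 of *Pax3* at chr1:78195284-78195343 and in exon 2 of *Pax7* at chr4:139830171-139830230, both on the minus strand. In *Pax1* and *Pax9* it lies in exon 2 at chr2:147365867-147365926 and chr12:56696708-56696767, on the plus strand. In the others it crosses an intron, from exon 2 to 3 in *Pax2* and *Pax5*, from exon 3 to 4 in *Pax8* and from exon 5 to 6 in *Pax6*. Over whole coding sequences, the longest identical run was 27 bases between *Pax2* and *Pax8* and 26 bases each for *Pax1* with *Pax9* and *Pax3* with *Pax7*. No other pair of members shared more than 20 bases in a row.

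The values are FPKM, fragment counts scaled by gene length and by library size, so levels of different genes can be set side by side. Over the 6 samples *Pax6* was highest, at 18.0 to 35.8 FPKM, followed by *Pax1* at 14.9 to 24.1. *Pax3* stood at 7.59 to 11.9 and *Pax9* at 6.73 to 10.2, and *Pax7* came next at 3.08 to 4.36. *Pax2*, *Pax8* and *Pax5* were low, at 0.176 to 2.50, 0.0232 to 1.31 and 0.0592 to 0.299. The ranges of *Pax6* and *Pax1* overlapped, as did those of *Pax3* and *Pax9* and of the low members. *Pax1* exceeded *Pax3*, *Pax9* exceeded *Pax7* and *Pax7* exceeded *Pax2* in each of the 6 samples with no overlap. *Pax3* thus had a level higher than 53.9% of the genes tested, and *Pax7* higher than 37.9%. The sum of the 8 genes was 72.8 ± 4.72 FPKM in the control group and came to 70.7 ± 0.854 FPKM in the mutant group (SD, n = 3 each).

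All 8 members passed the filter of a mean FPKM over 0.1 across the 6 samples, which left 17826 genes. Differences are mutant minus control on log2(FPKM + 0.1), tested with limma and Benjamini-Hochberg adjustment over all these genes. No gene had an adjusted p under 0.05 (0% of genes tested), and 442 genes, or 2.48%, had an unadjusted p under 0.05, 1.01% higher and 1.47% lower. The deleted gene *Rbfox2* was lower in all mutants, at 38.1, 36.3 and 34.3 FPKM against 58.4, 65.0 and 61.3 in controls, in the direction the genotype labels give. Replicate 1 of either genotype was set apart from the remaining samples, with scores of -29.3 and -28.5 on the first principal component against 12.0 to 18.4. Differences within replicate numbers are given for that reason. Y-linked genes were expressed in mutant replicates 1 and 2 (57.7 and 55.5 FPKM summed over 4 genes) but not in the others (0.0989 to 0.217), so the sex of the embryos was not balanced between the groups. All 7 cranial mesenchyme markers were found in every sample, with a summed level of 363 to 391 FPKM in controls and 315 to 401 in mutants.

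**Figure D1:**
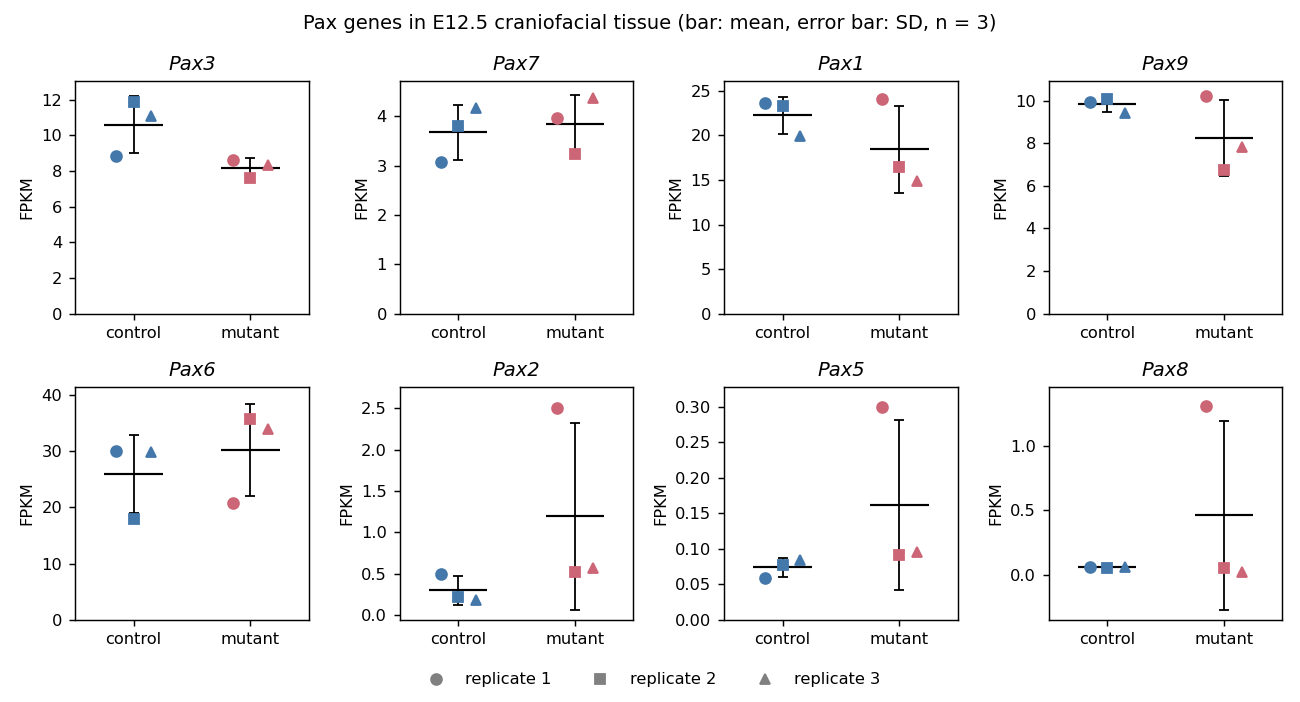
FPKM (y axis, linear) of each Pax gene in the control and mutant samples. Symbols mark the replicate number, bars the mean and error bars the SD of 3 samples. All mutants lie below all controls for *Pax3* and above them for *Pax2* and *Pax5*, while mutant replicate 1 carries the high values of *Pax2*, *Pax5* and *Pax8*.

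Of the 8 members, 2 had an unadjusted p under 0.05 in limma, *Pax3* lower and *Pax2* higher in mutants, and none passed the adjusted threshold. In 3 members, *Pax3*, *Pax2* and *Pax5*, the mutant and control values did not overlap, which was so for 6.55% of all genes tested. *Pax2* and *Pax5* were above all controls, as were 3.03% of genes, and *Pax3* was below them, as were 3.52%. Past a log2 difference of 1 with an unadjusted p under 0.05 was *Pax2* alone, against 0.527% of genes. With the replicate number as a block *Pax1* joined *Pax2* and *Pax3* at an unadjusted p under 0.05, against 5.91% of genes, and the same 3 members passed with a term for the first replicates, against 5.96%. The median difference of the 8 members was 0.14 on the log2 scale, against -0.00060 for all genes. It covers 5 members with a positive and 3 with a negative difference.

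*Pax3* (ENSMUSG00000004872) lies on the minus strand of chr1:78101267-78197134 and its main coding transcript has 9 exons. It stood at 8.83, 11.9 and 11.1 FPKM in control replicates 1, 2 and 3 and at 8.62, 7.59 and 8.36 FPKM in the mutants. Every mutant was thus below every control, but the lowest control and the highest mutant, both first replicates, were only 0.219 FPKM apart. The mutant mean of 8.19 ± 0.536 (SD, n = 3) was 77.2% of the control mean of 10.6 ± 1.59 (SD, n = 3). The difference was -0.36 on the log2 scale (standard error 0.13, unadjusted p = 0.0276 and adjusted p = 1.0 from limma). Its 95% interval ran from 0.629 to 0.964 of the control level, and p was 0.10 by the two-sided exact permutation test over samples, which cannot go lower with 3 against 3. Within replicate numbers *Pax3* differed by -0.04 between the first replicates, by -0.64 between the second and by -0.41 between the third. Less *Pax3* RNA per cell and fewer *Pax3*-expressing cells cannot be told apart in whole tissue. The table gives 1 value per gene, so exons before and behind the Cre insertion were not compared.

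*Pax7* (ENSMUSG00000028736, chr4:139737062-139833528, minus strand) is the closest paralog of *Pax3*. Its level was 3.08, 3.8 and 4.17 FPKM in the controls and 3.96, 3.24 and 4.36 FPKM in the mutants, and the ranges of the groups overlapped. The difference was 0.06 on the log2 scale (standard error 0.17, unadjusted p = 0.713 and adjusted p = 1.0 from limma). The 95% interval of the mutant level was 0.796 to 1.37 of the control, which lies above the 77.2% estimated for *Pax3* but overlaps the interval of *Pax3*. The sign also varied between replicate numbers, at 0.35, -0.23 and 0.06.

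The 2 paralogs were then compared within each sample. *Pax7* stood at 34.8%, 32.0% and 37.5% of *Pax3* in the controls and at 46.0%, 42.6% and 52.2% in the mutants. All 3 mutants were above all 3 controls, the means being 46.9% ± 4.85 and 34.8% ± 2.79 (SD, n = 3 each). On the log2 scale, *Pax7* relative to *Pax3* was 0.43 higher in the mutants (p = 0.10 by the exact permutation test, two-sided, again the lowest it can give, and 0.25 when samples were permuted within replicate pairs, also the lowest). The mutant of each replicate number had the higher ratio, including the first replicates. With any 1 sample left out the difference remained between 0.35 and 0.49, which was a narrower range than for either gene by itself.

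**Figure D2:**
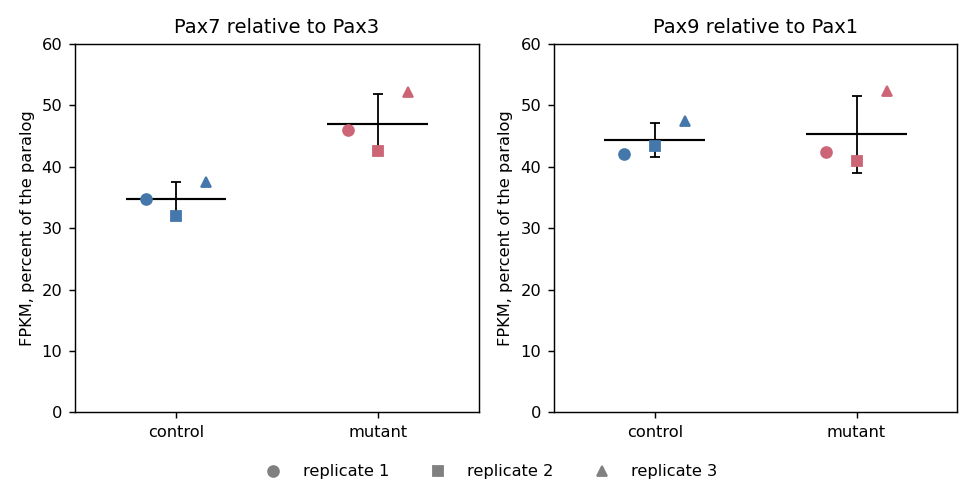
FPKM of *Pax7* as a percentage of *Pax3* (left) and of *Pax9* as a percentage of *Pax1* (right) in each sample, with the mean (bar) and SD (error bar) of 3 samples. The ratio of *Pax7* to *Pax3* separates the groups, at 32.0% to 37.5% in controls and 42.6% to 52.2% in mutants, while that of *Pax9* to *Pax1* overlaps.

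Genes near *Pax3* were examined because they lie on the chromosome that carries the knock-in. Of the 25 annotated genes within 1 Mb of *Pax3*, 11 were in the table and 8 were tested, with a median difference of -0.04 on the log2 scale. The nearest of them, *Sgpp2*, a sphingosine phosphatase gene, differed by 0.06 (standard error 0.21), and *Epha4*, an ephrin receptor gene on the other side, by 0.01 (standard error 0.088). The exception was *Kcne4*, which encodes a potassium channel subunit and lies 619624 bases away. It stood at 1.30, 2.33 and 1.62 FPKM in controls and 0.963, 1.2 and 0.787 FPKM in mutants, without overlap. The difference was -0.75 (standard error 0.25, unadjusted p = 0.0209 and adjusted p = 1.0 from limma).

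**Figure D3:**
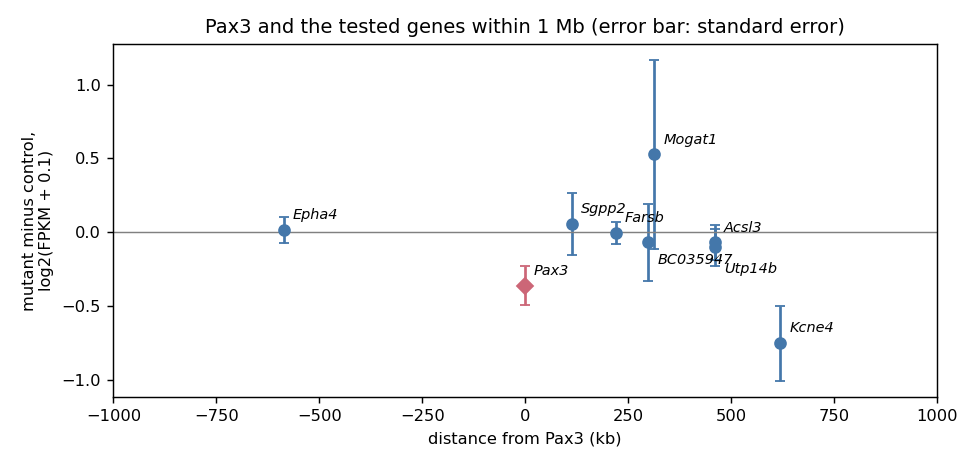
Difference between mutants and controls on log2(FPKM + 0.1) (y axis) against the distance from *Pax3* in kb (x axis) for *Pax3* (diamond) and the 8 tested genes within 1 Mb (circles), with the standard error from limma. *Pax3* and *Kcne4* lie below 0 and the other genes within about 1 standard error of it.

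Known targets of *Pax3* and *Pax7* in muscle were at lower mean log2 levels in the mutants in 7 of 7 genes, with a median difference of -0.29. For *Lbx1* among them the sign was not resolved, at -0.12 (standard error 0.95). Its mean FPKM in mutants was 216% of the control mean, and its difference was 0.20 with a pseudocount of 1 in place of 0.1. The other targets stayed negative with that pseudocount. One of the 7, *Itm2a*, a membrane protein gene, had an unadjusted p under 0.05, as did 2.48% of genes tested, and none had an adjusted p under 0.05. *Itm2a* was at 145, 174 and 160 FPKM in controls and 138, 142 and 112 FPKM in mutants, a difference of -0.29 (standard error 0.12, unadjusted p = 0.0460 and adjusted p = 1.0 from limma). *Myod1*, the myogenic determination factor, was at 9.40, 12.7 and 9.11 FPKM in controls and 8.93, 8.35 and 6.86 FPKM in mutants. In both genes all mutants lay below all controls, as in 3.52% of genes tested. The difference of *Myod1* was -0.36 (standard error 0.16, unadjusted p = 0.0617 from limma, and 0.0244 with the replicate block). With that block 2 of the 7 targets passed 0.05, against 5.91% of genes tested. Skeletal muscle markers, which share *Myf5* and *Myod1* with these targets, were summed at 104 to 226 FPKM in controls and 100 to 135 FPKM in mutants, and 6 of 6 had a negative difference with a median of -0.41. None of these 6 had an unadjusted p under 0.05 without the replicate block. With it 4 did, all lower (*Myod1*, *Myog*, *Des* and *Actc1*), against 5.91% of genes tested. No muscle marker had an adjusted p under 0.05 either way. Their part in the result for *Pax3* was not tested. In the first replicates, the summed muscle markers were at 104 and 100 FPKM in control and mutant.

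The neural crest and pigment targets of *Pax3* were more mixed. None of 8 had an unadjusted p under 0.05, 5 had a negative and 3 a positive difference, and the median was -0.20. *Mitf*, the master regulator of melanocytes, differed by -0.19 (standard error 0.17), *Snai2*, a neural crest factor, by -0.20 (standard error 0.094) and *Sox10*, a marker of neural crest and glia, by 0.07 (standard error 0.14). *Tyrp1*, a melanin synthesis enzyme, was the 1 gene of the list without overlap, at 0.793, 0.995 and 0.933 FPKM in controls and 1.04, 1.06 and 1.06 FPKM in mutants. Summed pigment cell markers ranged from 16.5 to 22.5 FPKM in controls and 16.5 to 20.5 FPKM in mutants, and neural crest glia markers from 28.2 to 36.4 and 28.4 to 34.1 FPKM.

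*Pax1* (ENSMUSG00000037034, chr2:147361925-147393295, plus strand) was at 23.6, 23.3 and 19.9 FPKM in controls and 24.1, 16.4 and 14.9 FPKM in mutants. *Pax9* (ENSMUSG00000001497, chr12:56691767-56712822, plus strand) was at 9.95, 10.1 and 9.43 FPKM in controls and 10.2, 6.73 and 7.80 FPKM in mutants. In both genes mutant replicates 2 and 3 lay below all controls, and mutant replicate 1 lay above them. The differences over all samples were -0.30 for *Pax1* (standard error 0.18, unadjusted p = 0.145 from limma) and -0.27 for *Pax9* (standard error 0.15, unadjusted p = 0.123 from limma), with an adjusted p of 1.0 each. The exact permutation test gave p = 0.40 for either gene, two-sided.

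The first replicates differed by 0.02 for *Pax1* and 0.04 for *Pax9*, against a mean of -0.46 and -0.42 in replicates 2 and 3. This contrast between replicate sets rests on 1 pair of samples and was not tested. With the replicate number as a block the unadjusted p of *Pax1* was 0.0419, and without mutant replicate 1 its difference was -0.50, against -0.43 for *Pax9*. *Pax9* stood at 44.3% ± 2.78 of *Pax1* across the controls, against 45.3% ± 6.21 across the mutants (SD, n = 3 each), so the balance within this pair, unlike that of *Pax3* and *Pax7*, differed by less than its spread between samples.

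Genes that work with *Pax9* and *Pax1* in palate, tooth and sclerotome were then examined. Of 9 genes 7 had a negative and 2 a positive difference, the median was -0.10, and none had an unadjusted p under 0.05. *Msx1*, a partner of *Pax9* in tooth and palate mesenchyme, was at 64.4 to 83.4 FPKM in controls and 54.6 to 83.4 FPKM in mutants. *Osr2*, which is required for palatal shelf growth, differed by -0.18 (standard error 0.10) and *Bmp4*, a signal induced in tooth mesenchyme, by -0.10 (standard error 0.096). *Meox1*, a sclerotome factor, had the largest difference of the list, at -0.53 (standard error 0.24), and was the 1 gene of the list to pass 0.05 with the replicate block (unadjusted p = 0.00627 and adjusted p = 0.837 from limma).

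An antisense gene overlaps each of these members. *Gm15524*, opposite to *Pax9*, stood at 0.964, 0.791 and 1.5 FPKM in controls and 0.727, 0.282 and 0.580 FPKM in mutants, without overlap (difference -0.94, standard error 0.35, unadjusted p = 0.0323 and adjusted p = 1.0 from limma). *AI646519*, opposite to *Pax1*, was at 2.09 to 3.09 FPKM in controls and 0.866 to 2.29 FPKM in mutants (difference -0.74, standard error 0.33). The libraries kept strand, but whether strand was used in assigning fragments to genes is not given in the sources used here, so values of overlapping genes are uncertain.

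*Pax6* (ENSMUSG00000027168, chr2:105668900-105697364, plus strand) did not separate the groups. It was at 30.0, 18.0 and 29.9 FPKM in controls and 20.8, 35.8 and 34.0 FPKM in mutants. Control replicate 2 and mutant replicate 1 were low, and the other 4 samples lay at 29.9 to 35.8. The difference was 0.21 (standard error 0.27, unadjusted p = 0.454 and adjusted p = 1.0 from limma), with a 95% interval of 0.748 to 1.80 of the control level. Within replicate numbers it ran from -0.53 in the first to 0.99 in the second, and without control replicate 2 it was -0.03.

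Of 15 genes of the eye and forebrain network of *Pax6*, 12 had a positive and 3 a negative difference, with a median of 0.09, and none had an unadjusted p under 0.05. *Lhx2*, a factor of eye field and cortex, was at 90.0, 28.1 and 46.4 FPKM in controls, against 57.6, 69.3 and 69.9 FPKM in mutants. *Neurog2*, a proneural gene downstream of *Pax6* in cortex, was at 34.5, 9.21 and 14.5 FPKM in controls, against 17.4, 28.1 and 19.7 FPKM in mutants. Both were lowest in control replicate 2, the sample with the lowest *Pax6*. *Meis1*, a homeodomain factor that acts upstream of *Pax6* in the lens, was the member of the network without overlap, at 17.2 to 23.6 FPKM in controls and 24.5 to 27.6 FPKM in mutants.

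Markers of brain tissue differed between samples by as much. Summed forebrain and eye progenitor markers were at 214, 90.3 and 133 FPKM in controls and 161, 163 and 148 FPKM in mutants, and 0 of 6 had an unadjusted p under 0.05. Of the 6 neuron markers, all had a positive difference, with sums of 606 to 713 FPKM in controls and 753 to 860 FPKM in mutants. An unadjusted p under 0.05 was found for 4 of them, against 2.48% of genes tested, and for 6 with the replicate block, against 5.91%. In 5 all mutants lay above all controls, as in 3.03% of genes tested. *Tubb3*, the neuronal tubulin, differed by 0.34 (standard error 0.12, unadjusted p = 0.0281 and adjusted p = 1.0 from limma). The part of these cells in the values of *Pax6* was not tested.

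*Pax2*, *Pax5* and *Pax8* shared 1 high sample. *Pax2* (ENSMUSG00000004231, chr19:44756045-44837871, plus strand) was at 0.495, 0.219 and 0.176 FPKM in controls and 2.50, 0.517 and 0.565 FPKM in mutants. *Pax5* (ENSMUSG00000014030, chr4:44524757-44710487, minus strand) was at 0.0592, 0.0778 and 0.0840 FPKM in controls and 0.299, 0.0909 and 0.0950 FPKM in mutants. *Pax8* (ENSMUSG00000026976, chr2:24420560-24475599, minus strand) was at 0.0612, 0.0577 and 0.0640 FPKM in controls and 1.31, 0.0578 and 0.0232 FPKM in mutants. Mutant replicate 1 was the highest sample for all 3 genes, and for *Pax8* it was the only one above 0.0640 FPKM. The mutants of *Pax2* and *Pax5* did not overlap with the controls, although for *Pax2* the lowest mutant was only 0.0223 FPKM above the highest control. For *Pax5* the gap was smaller still, the lowest mutant being at 0.0909 FPKM and the highest control at 0.0840.

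*Pax2* differed by 1.45 on the log2 scale (standard error 0.59, unadjusted p = 0.0440 and adjusted p = 1.0 from limma). The mutant was higher in each replicate number, by 2.13, 0.95 and 1.27, and without mutant replicate 1 the difference was 0.78. *Pax5* differed by 0.50 (standard error 0.39, unadjusted p = 0.231 from limma) and without mutant replicate 1 by 0.15. *Pax8* differed by 0.90 (standard error 0.88, unadjusted p = 0.336 from limma), and without mutant replicate 1 its difference was -0.21. *Pax8* had an exact permutation p of 0.90, and *Pax2* and *Pax5* were each at 0.10, the smallest possible. At a few hundredths of an FPKM the number of reads behind a value is small but unknown, and the differences of *Pax5* and *Pax8* between the other samples were not resolved.

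**Figure D4:**
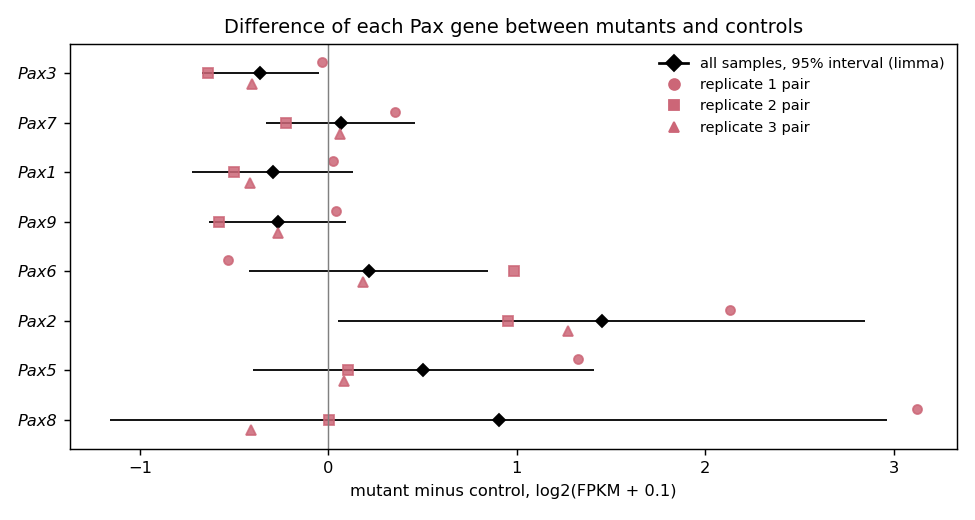
Difference between mutants and controls of each Pax gene on log2(FPKM + 0.1) (x axis), over all samples with the 95% interval from limma (diamond and line) and within each replicate number (red symbols). The interval lies below 0 for *Pax3* and above 0 for *Pax2*, and the pair of first replicates is the highest for each gene except *Pax6*.

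Some other genes with regional expression were also high in mutant replicate 1, of which *Gata3* and *Lbx1* were picked as examples after their values were seen. *Oc90*, which encodes the main otoconial protein of the ear, was at 0.0829, 5.04 and 0.0631 FPKM in controls and 25.4, 10.2 and 8.38 FPKM in mutants. The 4 otic epithelium markers summed to 1.06, 6.55 and 1.03 FPKM in controls and 27.6, 12.1 and 9.33 FPKM in mutants. Most of each mutant sum was *Oc90*, and only *Oc90* had an unadjusted p under 0.05, as did 2.48% of genes tested. *Otog* and *Fbxo2* were above all controls in mutant replicates 1 and 2 but within the control range in mutant replicate 3. *Otoa* was at 0.0279, 0.181 and 0.116 FPKM in controls and 0.298, 0.104 and 0.0294 FPKM in mutants. *Gata3*, a factor of ear and hindbrain neurons, was at 2.54 to 3.41 FPKM in controls and 6.69, 2.78 and 2.27 FPKM in mutants. It belongs to the boundary, ear and kidney network of *Pax2*, *Pax5* and *Pax8*. In that network *Lhx1*, *Dlx5* and *Lmx1b* were also highest in mutant replicate 1, while *Fgf8*, *Wt1*, *Gbx2*, *Sall1* and *En1* were highest in other samples. *Lbx1*, a marker of dorsal hindbrain interneurons and migrating muscle precursors that is also among the muscle targets above, was at 0.369 to 0.571 FPKM in controls and 2.77, 0.110 and 0.125 FPKM in mutants.

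After these values were seen, 16 genes of hindbrain and interneurons were listed and described without a test. Of the 14 that passed the filter, 13 were highest in mutant replicate 1, as were 15.03% of all genes tested. They included *Hoxb2*, at 0.390, 0.705 and 0.741 FPKM in controls and 4.40, 0.861 and 0.746 FPKM in mutants. *Hoxa2* was at 0.315, 2.44 and 2.13 FPKM in controls and 6.56, 3.69 and 2.73 FPKM in mutants. In both genes all mutants lay above all controls, as in 3.03% of genes tested, although for *Hoxb2* mutant replicate 3 was barely above. The 16 genes summed to 62.0 FPKM in mutant replicate 1 and to 31.4 to 39.8 FPKM elsewhere. The list was made because of high values in that sample, and *Lbx1*, given above, was among the 13. The count was therefore largely fixed by the choice of genes, and setting it beside 15.03% is no test. Some margins were also small, with *Tlx3* at 4.87 FPKM there and 4.57 in control replicate 1, and *Gad1* at 6.11 and 5.93 in control replicate 3. Others were wide, as for *Hoxb2*. The separate list of 5 midbrain and hindbrain markers was not highest in mutant replicate 1. Those markers summed to 7.0, 3.98 and 5.11 FPKM in controls and 5.39, 6.07 and 6.36 FPKM in mutants. The share of such tissue in the values of *Pax2*, *Pax5* and *Pax8* was not tested.

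**Figure D5:**
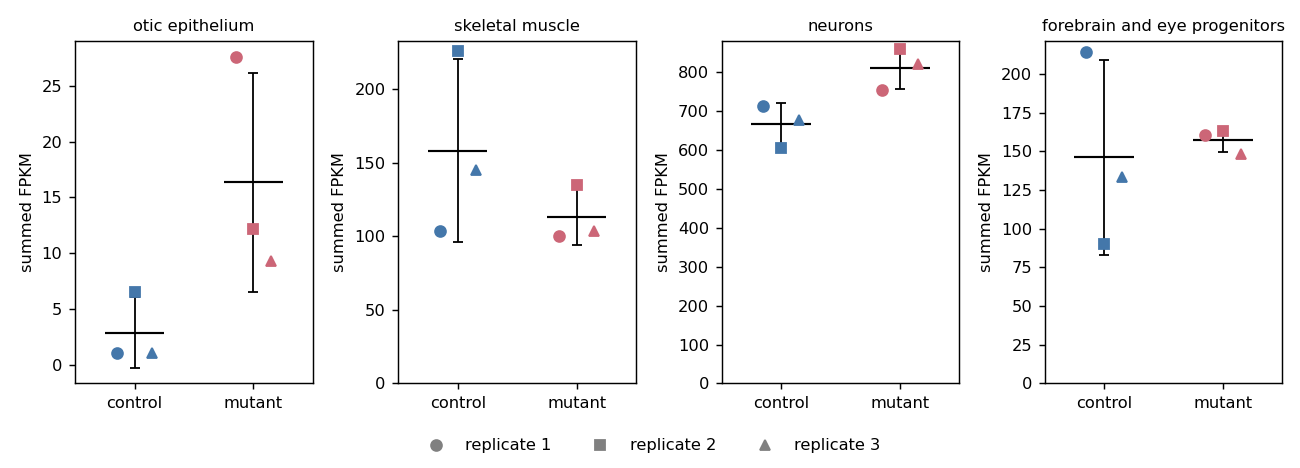
Summed FPKM (y axis, linear) of the markers of otic epithelium, skeletal muscle, neurons, and forebrain and eye progenitors in each sample, with the mean (bar) and SD (error bar) of 3 samples. Mutant replicate 1 is highest for otic markers at 27.6, of which *Oc90* alone makes 25.4. Control replicate 2 is highest for muscle markers at 226 and lowest for forebrain and eye markers at 90.3.

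The boundary, ear and kidney network of *Pax2*, *Pax5* and *Pax8* had 12 genes in the table, of which 9 were tested, and none had an unadjusted p under 0.05. The median difference was 0.26, with 7 positive and 2 negative. *Lhx1*, a factor of kidney and interneurons, had the largest, at 1.09 (standard error 0.62), and alone in this list passed 0.05 with the replicate block (unadjusted p = 0.0206 and adjusted p = 0.837 from limma), while *En1*, a midbrain-hindbrain boundary gene, differed by -0.29 (standard error 0.23). The defining boundary markers *En2* and *Wnt1* did not reach a mean FPKM of 0.1, and the 5 midbrain and hindbrain markers, all of them also in this network, summed to 3.98 to 7.0 FPKM in controls against 5.39 to 6.36 FPKM in mutants. Partners of Pax proteins in sensory placodes and muscle, Eya and Dach factors among them, were also examined. None of 10 had an unadjusted p under 0.05 and their median difference was 0.02, with 5 in each direction. *Eya1*, a transcriptional coactivator of this network, differed by 0.04 (standard error 0.12).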

How the data were processed

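Craniofacial RNA of 3 control and 3 mutant samples was analysed as deposited. The authors prepared stranded poly(A)+ libraries, aligned paired-end reads to GRCm38 with STAR and deposited FPKM values per gene. Their processing notes also name FastQC 0.11.4 and Cuffdiff, and the step that made the gene table is not given in the sources used here. The 6 single tables and the table of all samples held the same values, with 0 differences. FPKM keep no read counts, so depth per gene is unknown and no counting interval was given. FPKM summed to 528123 to 590174 per sample.

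Genes with a mean FPKM over 0.1 in all 6 samples together were kept, since the methods' filter of 5 for transcripts would leave 4 of the 8 members. Values were taken to log2(FPKM + 0.1) and groups were compared in limma 3.58.1 (R 4.3.3), letting the prior variance follow the mean level and adding no covariate. The fit was tested on simulated data. Single genes were also compared by exact two-sided permutation tests over samples. Differences on this scale understate the change of genes near 0.1 FPKM.

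The members, the 6 gene lists and 10 marker lists, and the tests were chosen with earlier results of these data known. Named genes were the members, *Rbfox2*, genes overlapping a member or within 1 Mb of *Pax3*, list genes with an unadjusted p under 0.05 or without overlap of the groups, and the 5 genes most like *Pax3* and *Pax7*. Other list genes were named as examples after their values were seen, and some genes are not reported here. Of the gene identifiers, 95.03% were in GENCODE M21. The same replicate numbers occur in both genotypes. Deviations from group means correlated at 0.32, 0.14 and 0.17 between samples with the same number, across genes, which are not independent replicates, and at -0.28 to 0.16 between samples with different numbers, where control replicate 3 with mutant replicate 2 exceeded the second pair. Each same-number correlation was over 0.1, so the numbers were taken as pairs and the block was run as an alternative. The labels do not tie these numbers to litters.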

Additional observations from a re-analysis of the deposited data

How the results depend on the processing

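The differences of *Pax3*, *Pax1*, *Pax9*, *Pax2*, *Pax5*, *Rbfox2* and of *Pax7* relative to *Pax3* kept their direction under each alternative that could be run, and in no alternative did a member or *Rbfox2* have an adjusted p under 0.05. *Pax3* no longer had an unadjusted p under 0.05 with Y-linked expression as a covariate (unadjusted p = 0.153 and adjusted p = 0.999 from limma) and without control replicate 2 or 3 or mutant replicate 2 or 3, with differences of -0.49 to -0.27 over the samples left out. The unadjusted limma p of *Pax2* was over 0.05 in 7 settings, at 0.0515 without a filter, 0.0605 without an intensity trend, 0.0776 with a pseudocount of 1 (difference 0.65), 0.383 with the Y-linked covariate (0.81), and 0.0950 to 0.118 without control replicate 2 or 3 or mutant replicate 1. *Pax7* was at -0.081 in replicates 2 and 3 only and between -0.057 (without control replicate 1) and 0.18 with 1 sample left out, and also below 0 without mutant replicate 3, at -0.029. *Pax8* was at -0.45 with the Y-linked covariate, -0.21 in replicates 2 and 3 only and between -0.21 and 1.55 with 1 sample left out, and *Pax6* between -0.031 (without control replicate 2) and 0.46. The 2 members with an unadjusted p under 0.05 became 1 with a pseudocount of 1, the FPKM filter of 5, no filter, no intensity trend or the Y-linked covariate, 4 in replicates 2 and 3 only, and 0 to 3 with 1 sample left out. With the replicate block they were 3 (*Pax1*, *Pax2* and *Pax3*), genes with an unadjusted p under 0.05 were 1054, or 5.91%, in place of 442, and the block changed no other call of a member. Calls it adds among the gene lists stand beside those lists, and each is to be read against the same 5.91% of genes tested. Genes with an adjusted p under 0.05 numbered 5 with the Y-linked covariate and 0 to 7 with 1 sample left out, the highest without mutant replicate 3. The 94 genes past a log2 difference of 1 and an unadjusted p of 0.05 (0.527%) became 13 with a pseudocount of 1, 3 with the FPKM filter of 5, 219 with the Y-linked covariate, 240 in replicates 2 and 3 only and 88 to 190 with 1 sample left out. Some settings leave fewer genes or samples, and the causes of these changes were not tested. Scaling by median ratios moved a sample by at most 0.0284 on the log2 scale. *Pax2*, *Pax5*, *Pax7* and *Pax8* are below the FPKM filter of 5 and have no value there.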

Other observations

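Among 13715 genes with a mean FPKM over 1, the 5 whose log2(FPKM + 0.1) followed *Pax3* most closely over the 6 samples were *Trp63*, *Ticam1*, *Hspb11*, *Setd6* and *Fcho2*, with Pearson's r of 0.985 to 0.987. *Trp63*, the master regulator of stratified epithelium, was at 7.60, 9.69 and 9.10 FPKM in controls and 7.59, 7.20 and 7.65 FPKM in mutants, so that, like *Pax3*, it was low in control replicate 1 and in all mutants. For *Pax7* the 4 closest were *Tnpo1*, *Mrfap1*, *8430427H17Rik* and *Arid2*, with r of 0.9753 to 0.9926, and *Tnpo1*, a nuclear import receptor gene, was at 48.0 to 55.0 FPKM in controls and 49.8 to 57.0 FPKM in mutants. *Pax7* itself ranked 3985th among these genes by its likeness to *Pax3*, at r of 0.342. These values are the highest of 13715 over only 6 samples and are given as a description.

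Surface and oral epithelium markers, of which *Trp63* is one, summed to 114, 199 and 172 FPKM in controls and 113, 159 and 119 FPKM in mutants. None of the 6 had an unadjusted p under 0.05 in limma without the replicate block. With it 2 did, the keratin genes *Krt14* and *Krt5*, both lower, against 5.91% of genes tested. Of the 6, 5 had a negative difference.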
